A study of Homo sapiens with 192 samples.

Results

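Genes that encode the machinery of chromatin itself were examined here: 59 genes for Polycomb proteins, histone methyltransferases and demethylases, acetylation enzymes, SWI/SNF and other remodelers, DNA methylation enzymes, and CTCF with cohesin. A gene was represented by every deposited feature within 1000 bp of 1 of its GENCODE 44 transcription starts, on hg38. This rule gave 76 features at 36 of the 59 genes, out of 80971 features in all. The remaining 23 genes had none. The features came from plate-based snATAC-seq of HAP1, an adherent near-haploid human cell line derived from the KBM-7 leukemia line. Single nuclei were sorted into 96-well plates. The first number in the name of each cell, 1 or 2, was read as the plate and the second, from 1 to 96, as the well, which the labels do not state in words. CASB-labeled and unlabeled cells had been mixed before tagmentation, the label of each cell is not known here, and neither plate received any further treatment according to the labels. Each plate therefore counts as 1 mixed sample of 1 cell line, cells are not replicates, and no test was made.

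Chromatin regulators work as writers, readers and erasers of histone and DNA marks, or as motors that move nucleosomes. Polycomb complexes silence developmental genes, histone acetylation goes with active promoters and enhancers, SWI/SNF remodelers open nucleosomal DNA, and CTCF with cohesin holds chromatin loops. Most of these genes are expressed in many cell types from promoters rich in CpG. ATAC-seq relies on a transposase that inserts adapters into open DNA, and a read pair in a feature therefore marks a nucleus in which that stretch was accessible. A near-haploid nucleus holds 1 copy of most loci before it replicates, and a single copy gives few read pairs per feature.

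The sequences at which the genes were open most and least often are shown first. For each of the 6 groups, these are the leading features of the gene seen in the most and in the fewest passing cells, where the leading feature of a gene is the feature of that gene seen in the most cells. Each stretch is the run of up to 150 bases nearest to the center of the feature that overlaps no annotated exon, read on the strand of the gene from the hg38 reference. Capitals mark matches to the motif letters listed further below. Ties were settled by genome order. The genes seen most often in their groups were JARID2 (chr6:15245401-15245550, plus strand), SUV39H2 (chr10:14878728-14878819, plus strand), HDAC3 (chr5:141636631-141636735, minus strand), SMARCA2 (chr9:2015036-2015185, plus strand), TET2 (chr4:105146980-105147129, plus strand) and SMC3 (chr10:110567384-110567533, plus strand).
JARID2: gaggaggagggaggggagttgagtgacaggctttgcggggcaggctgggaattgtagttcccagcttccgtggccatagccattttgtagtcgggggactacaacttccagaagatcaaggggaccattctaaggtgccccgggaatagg
SUV39H2: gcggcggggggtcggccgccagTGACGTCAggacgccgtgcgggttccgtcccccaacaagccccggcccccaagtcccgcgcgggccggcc
HDAC3: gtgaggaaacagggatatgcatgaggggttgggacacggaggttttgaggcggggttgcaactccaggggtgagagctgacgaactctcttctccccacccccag
SMARCA2: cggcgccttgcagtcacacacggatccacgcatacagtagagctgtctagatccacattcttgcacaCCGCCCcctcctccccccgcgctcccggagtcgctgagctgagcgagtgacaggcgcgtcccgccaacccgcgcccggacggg
TET2: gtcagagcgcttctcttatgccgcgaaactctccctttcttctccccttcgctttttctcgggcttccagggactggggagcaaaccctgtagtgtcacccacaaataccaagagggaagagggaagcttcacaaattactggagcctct
SMC3: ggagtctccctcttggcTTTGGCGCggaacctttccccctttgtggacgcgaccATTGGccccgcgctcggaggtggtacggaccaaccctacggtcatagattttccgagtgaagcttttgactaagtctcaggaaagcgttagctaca
KMT2A was seen in as many cells as SUV39H2, HDAC2 in as many as HDAC3, and CTCF and RAD21 in as many as SMC3. The CRE palindrome stood within the stretch of SUV39H2, the stretch of SMARCA2 held a GC box, and that of SMC3 held an E2F motif and a CCAAT box. The stretches of JARID2, HDAC3 and TET2 held none of the motifs searched. To avoid exons, those of HDAC3 and TET2 were taken 362 and 233 bp from the feature center. In the 300 bases around the center both of these features had a GC box.

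The genes seen least often were BMI1 (chr10:22325775-22325924, plus strand), EHMT1 (chr9:137832218-137832367, plus strand), KAT7 (chr17:49815120-49815269, plus strand), CHD4 (chr12:6606124-6606273, minus strand), DNMT1 (chr19:10195136-10195285, minus strand) and NIPBL (chr5:36876701-36876768, plus strand).
BMI1: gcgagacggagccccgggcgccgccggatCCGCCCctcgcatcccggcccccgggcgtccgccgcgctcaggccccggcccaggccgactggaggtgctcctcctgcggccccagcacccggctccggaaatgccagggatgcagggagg
EHMT1: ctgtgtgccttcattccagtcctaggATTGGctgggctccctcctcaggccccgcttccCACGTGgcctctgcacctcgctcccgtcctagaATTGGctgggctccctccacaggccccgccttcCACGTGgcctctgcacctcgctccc
KAT7: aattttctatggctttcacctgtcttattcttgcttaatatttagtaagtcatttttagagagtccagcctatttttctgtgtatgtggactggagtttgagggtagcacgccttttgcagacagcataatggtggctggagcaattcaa
CHD4: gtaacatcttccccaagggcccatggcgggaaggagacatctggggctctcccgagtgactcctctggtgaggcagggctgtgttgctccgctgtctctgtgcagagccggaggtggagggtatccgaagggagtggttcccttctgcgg
DNMT1: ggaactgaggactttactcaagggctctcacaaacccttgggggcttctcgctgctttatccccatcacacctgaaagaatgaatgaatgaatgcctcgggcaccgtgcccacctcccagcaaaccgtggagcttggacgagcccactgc
NIPBL: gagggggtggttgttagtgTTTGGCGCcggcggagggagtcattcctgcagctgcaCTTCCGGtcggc
KDM2B was seen in as few cells as EHMT1. The stretch of EHMT1 held 4 matches, from CCAAT boxes and E-boxes that recur in the same order, and that of KAT7 had the lowest GC content of the 12 stretches (39.3%, with 1 CpG). The stretch of BMI1 had a GC content of 79.3% and 19 CpGs. That of NIPBL held an E2F and an ETS motif within 68 bases. The stretches of CHD4 and DNMT1, taken at 323 and -229 bp from the feature center, held no motif. In the 300 bases around the center, CHD4 had a GC box, a CCAAT box and an ETS motif, and DNMT1 a GC box and an NRF1 motif.

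Cells passed if more than 300 peaks were found in them, counting only peaks that another cell also had, and 83 cells of plate 1 and 79 of plate 2 passed. They held 345 to 15351 read pairs each (median 2067.5). Of the 76 member features, 75 were kept, and 1 feature of KMT2A was seen in a single cell. Of 10 hemopoietic marker genes, 2 had a feature (TAL1 in 3 cells and ITGA2B in 6 cells), and PTPRC, SPI1, GATA1, CD34 and MPO were among those without one. Within the gene, away from its starts, a feature was nevertheless seen in 11 cells for PTPRC, 4 for CD34 and 2 for CD3E. Of 10 markers of adherent cells, 9 had a feature, with CAV1 in 22 cells and LGALS1 without one. Of all protein-coding genes, 56.1% had a feature. On each plate, wells 37 to 48 shared many peaks with wells 73 to 84, and these with wells 85 to 96, and 71 of the passing cells came from these wells. Each group of genes is therefore also described in the 91 passing cells outside these wells.

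The 36 genes with a feature were 61.02% of the 59, beside 56.1% of all 20033 protein-coding genes. The leading feature was seen in at least 10 passing cells for 14 genes (23.7%), beside 21.3% of protein-coding genes. Over all 59 genes the median leading feature was seen in 5 cells (3.09%), with 0 for a gene without a feature, and over all protein-coding genes in 3 cells (1.85%). Both counts of the chromatin genes, with all passing cells used, thus lay near the background. Of the 59 genes 11.9% reached 13 cells, beside 14.1% of protein-coding genes, and 3.39% reached 14 cells, beside 12.3%, since 5 genes were seen in exactly 13 cells. The genes seen in 14 or more were SMARCA2 and CHD8.

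**Figure D1:**
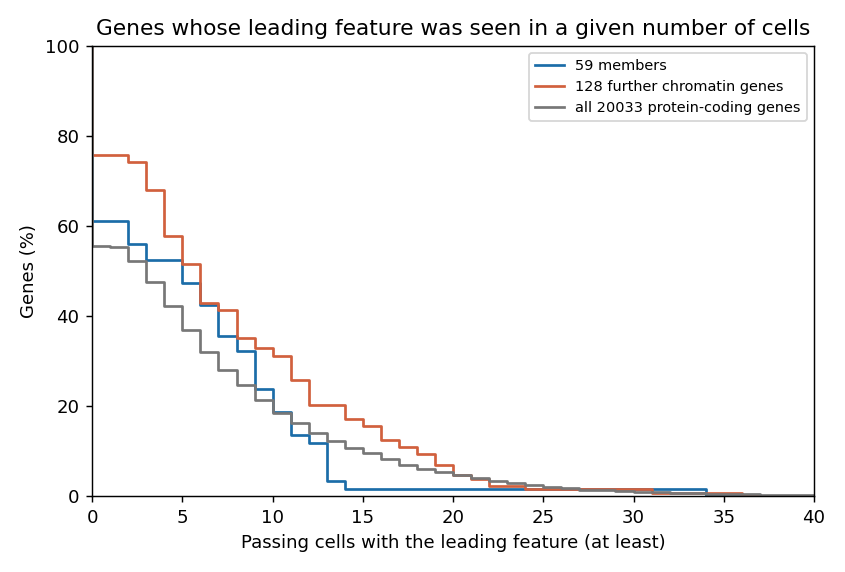
The x axis gives a number of passing cells and the y axis the percentage of genes whose leading feature was seen in at least that many, for the 59 chromatin genes, the further chromatin genes and all 20033 protein-coding genes. At 10 cells the lines stand at 23.7%, 32.8% and 21.3%, and the line of the 59 genes falls from 11.9% at 13 cells to 3.39% at 14 cells.

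Absence of a feature does not mean closed chromatin in these shallow data. Features were called on all cells together, so that a promoter open in few nuclei can lack one. Of 77 genes for ribosomal proteins, which every growing cell transcribes, 54 (70.1%) had a feature and 23 had none, and 14 (18.2%) reached 10 cells. This gene group was chosen after values of the chromatin genes had been seen. Reads outside the features were not analysed here, and the 23 chromatin genes without a feature enter the medians as 0 cells with a leading feature, not as a measured share of open promoters.

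Among the Polycomb genes, 7 of 10 had a feature and 3 reached 10 cells, beside 56.1% and 21.3% of all protein-coding genes. JARID2, an accessory subunit of the methyltransferase complex PRC2, was seen in 4 of 83 passing cells of plate 1 and in 7 of 79 of plate 2 (6.79% of all, exact 95% interval 3.44 to 11.8). EED, the PRC2 subunit that binds the methylated histone tail, was seen in 5 cells of each plate (6.17%, 3.00 to 11.1). EZH2, the catalytic subunit of PRC2, was seen in 3 cells of plate 1 and 6 of plate 2 (5.56%, 2.57 to 10.3). These 3 PRC2 genes had overlapping intervals. SUZ12, the PRC2 scaffold, and EZH1, the paralogue of EZH2, had no feature, and their nearest kept features lay 20581 and 19680 bp from a start.

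The other Polycomb genes encode PRC1, the complex that ubiquitinates histone H2A. RNF2, its main ubiquitin ligase, was seen in 7 cells of plate 1 and 3 cells of plate 2. Its paralogue RING1 was seen in 3 cells of each plate. CBX8, a chromodomain subunit that binds the Polycomb mark, was seen in 7 cells of plate 1 and 1 cell of plate 2, and the intervals of its shares (3.46 to 16.6% and 0.0320 to 6.85%) overlapped. The related CBX2, which lies on the same chromosome, had no feature. BMI1, the partner of the ligases, was seen in 3 cells, 2 of plate 1 and 1 of plate 2, all of them in the wells that shared peaks. Outside those wells JARID2 and RNF2 were seen in 7 of the 91 cells each, EZH2 in 5, EED in 4, CBX8 in 3 and RING1 in 2. Of the 21 further Polycomb genes, 13 had a feature, led by AEBP2 with 15 cells and RBBP7 with 12.

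Among the methyltransferase and demethylase genes, 11 of 19 had a feature and 2 reached 10 cells, beside 56.1% and 21.3% of protein-coding genes. KMT2A, which methylates histone H3 at active promoters, was seen in 6 cells of plate 1 and 7 of plate 2 (8.02%, 4.34 to 13.3). SUV39H2, a methyltransferase of heterochromatin, was seen in 8 and 5 cells, also 8.02% in all. KMT2A had the most features of any of the 59 genes, 12 at 26 annotated starts, and 22 cells had a read pair in at least 1 of those kept. Its leading feature lay upstream of the canonical start (center at -1122 bp), while the features over that start were seen in at most 8 cells. The paralogues KMT2C (9 cells) and KMT2B (8 cells) also had leading features away from the canonical start. KMT2D had none, and a feature seen in 7 cells lay 4191 bp from its nearest start.

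The other writers were seen in fewer cells. SETD1B, the catalytic subunit of a complex like that of KMT2A, was seen in 4 cells of plate 1 and 3 of plate 2, and its paralogue SETD1A had no feature. SETD2, which methylates histones along transcribed genes, was seen in 1 and 5 cells. SETDB1, a writer of repressive marks, was seen in 2 and 3 cells. EHMT1 was seen in 2 cells, both of plate 2, and its partner EHMT2 had no feature. NSD1 and DOT1L had none either. The intervals of the plates overlapped for each of these genes with a feature.

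Of 6 histone demethylase genes, KDM4A was seen in 4 cells of plate 1 and 3 of plate 2, KDM6B, which removes the Polycomb mark, in 4 and 2, and KDM2B, a demethylase that also brings PRC1 to CpG islands, in 2 cells of plate 2. KDM1A, KDM5A and KDM5B had no feature. For KDM5B a feature seen in 4 cells began 1779 bp from the nearest start, just outside the window, whereas that nearest to KDM1A lay 33026 bp away. Outside the wells that shared peaks, KMT2A was seen in 9 of the 91 cells, SUV39H2 in 7 and KDM4A in 5. KMT2C and SETD1B were seen there in 4 cells each, KMT2B, SETDB1 and KDM6B in 3 each, SETD2 in 2, and EHMT1 and KDM2B in none. Of the 28 further genes of this class, 25 had a feature and 10 reached 10 cells. They were led by KMT2E (22 cells), and PRMT5, KDM1B and PHF8 (20 cells each).

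Among the acetylation genes, 4 of 8 had a feature and 2 reached 10 cells, beside 56.1% and 21.3% of all protein-coding genes. The genes that reached 10 cells were both class I deacetylases. HDAC2 was seen in 4 cells of plate 1 and 7 of plate 2 (6.79%, 3.44 to 11.8). HDAC3, the deacetylase of the NCOR complexes, was seen in 5 and 6 cells, the same share in all. HDAC1, the close paralogue of HDAC2, had no feature near a start, and 1 feature seen in 2 cells lay within the gene, 9084 bp from the nearest start. The acetyltransferase gene EP300 was seen in 6 cells of plate 1 and 1 cell of plate 2, with overlapping intervals (2.70 to 15.1% and 0.0320 to 6.85%). Its paralogue CREBBP had no feature, and the nearest, seen in 4 cells, lay 1687 bp away. KAT7 was seen in 3 cells of plate 1 and none of 79 of plate 2, where the exact interval reached 4.56%. KAT2A and KAT6A had no feature. Outside the wells that shared peaks, HDAC3 was seen in 7 of the 91 cells, HDAC2 and EP300 in 5 each and KAT7 in 3. Of the 22 further genes, 16 had a feature, with HDAC6 in 24 cells and KAT2B and SIN3A in 19 cells each.

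Among SWI/SNF and other remodeler genes, 7 of 11 had a feature and 3 reached 10 cells, beside 56.1% and 21.3% of protein-coding genes. SMARCA2, 1 of the 2 alternative ATPases of SWI/SNF, was seen in 17 of 83 cells of plate 1 (20.5%, 12.4 to 30.8) and 17 of 79 of plate 2 (21.5%, 13.1 to 32.2). This was the highest count of the 59 genes, with 15.0 to 28.1% as the exact interval over both plates, and the next was that of CHD8 (4.81 to 14.1%). Outside the wells that shared peaks, SMARCA2 was seen in 16 of the 91 cells (17.6%, 10.4 to 26.98) and CHD8 in 7 (7.69%, 3.15 to 15.2), and these intervals overlapped. Only 0.664% of protein-coding genes had as many cells or more. SMARCA2 had 7 features, which lay at and near its main start (34, 14 and 16 cells), at an internal start (3 cells) and at starts far within the gene (15, 17 and 8 cells), and 55 cells had a read pair in at least 1 of them. Neighboring features overlapped in part, and how a read pair that touched more than 1 was counted is not given in the sources used here.

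SMARCA4, the other SWI/SNF ATPase, had no feature, and neither did the core subunit genes SMARCB1 and SMARCC1. A feature seen in 3 cells lay 1787 bp from a start of SMARCA4, 1 seen in 2 cells lay 2470 bp from SMARCB1 within the gene, and 1 seen in 3 cells lay 1938 bp from SMARCC1, also within the gene. These 3 fell just outside the window that defined the genes' features. ARID2, the DNA-binding subunit of the PBAF form, was seen in 8 cells of plate 1 and 4 of plate 2. ARID1A, the corresponding subunit of the BAF form, was seen in 5 and 4 cells and its paralogue ARID1B in 4 and 5. PBRM1, the bromodomain subunit of PBAF, had no feature near a start.

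CHD8, a remodeler that binds many active promoters, was seen in 9 cells of plate 1 and 5 of plate 2 (8.64% in all). A single cell had 5 read pairs in its leading feature, the most for any of these genes. INO80 was seen in 3 and 2 cells. CHD4, the ATPase of the NuRD complex, was seen in 1 cell of each plate. Outside the wells that shared peaks, ARID2 was seen in 7 of the 91 cells, ARID1A, ARID1B and INO80 in 4 each, and CHD4 in none. Of the 31 further remodeler genes, 24 had a feature. CHD1 (36 cells) and ACTL6A (31 cells) were the only further genes of any group seen in more than 24 cells.

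Among the DNA methylation genes, 3 of 7 had a feature and 1 reached 10 cells, beside 56.1% and 21.3% of all protein-coding genes. TET2, which oxidizes methylated cytosine, was seen in 6 cells of plate 1 and 4 of plate 2 (6.17%, 3.00 to 11.1). DNMT3A, a de novo methyltransferase, was seen in 1 and 6 cells, with overlapping intervals (0.0305 to 6.53% and 2.84 to 15.8%). DNMT1, the maintenance methyltransferase, was seen in 2 and 3 cells, all in the wells that shared peaks. DNMT3B, TET1, TET3 and UHRF1, the partner of DNMT1, had no feature. For UHRF1 the nearest lay 58104 bp from a start, the farthest of the 23 genes. Within the body of TET1, however, a feature was seen in 11 cells, and within TET2 another was seen in 13 cells, more than its leading feature. Outside the wells that shared peaks, TET2 was seen in 8 of the 91 cells and DNMT3A in 2. Of the 12 further genes, 10 had a feature, led by IDH1 (22 cells) and ZBTB33 (18 cells).

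All 4 genes for CTCF and cohesin had a feature, and 3 of them were seen in exactly 13 cells. Of all protein-coding genes, 56.1% had a feature and 14.1% reached 13 cells. CTCF, the zinc finger protein that marks loop anchors, was seen in 8 cells of plate 1 and 5 of plate 2 (8.02%, 4.34 to 13.3). RAD21, the kleisin of cohesin, was seen in the same numbers, and SMC3, a ring subunit, in 7 and 6 cells. NIPBL, the loader, was seen in 4 and 5 cells (5.56%, 2.57 to 10.3). The intervals of the 4 genes overlapped. Outside the wells that shared peaks, CTCF was seen in 10 of the 91 cells, SMC3 in 8, RAD21 in 6 and NIPBL in 3. Of 14 further genes of the class, 9 had a feature, and SGO1 (21 cells), STAG2 (17), STAG1 and WAPL (16 each) exceeded these 4. PDS5A, PDS5B and MAU2, the partner of NIPBL, had none.

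**Figure D2:**
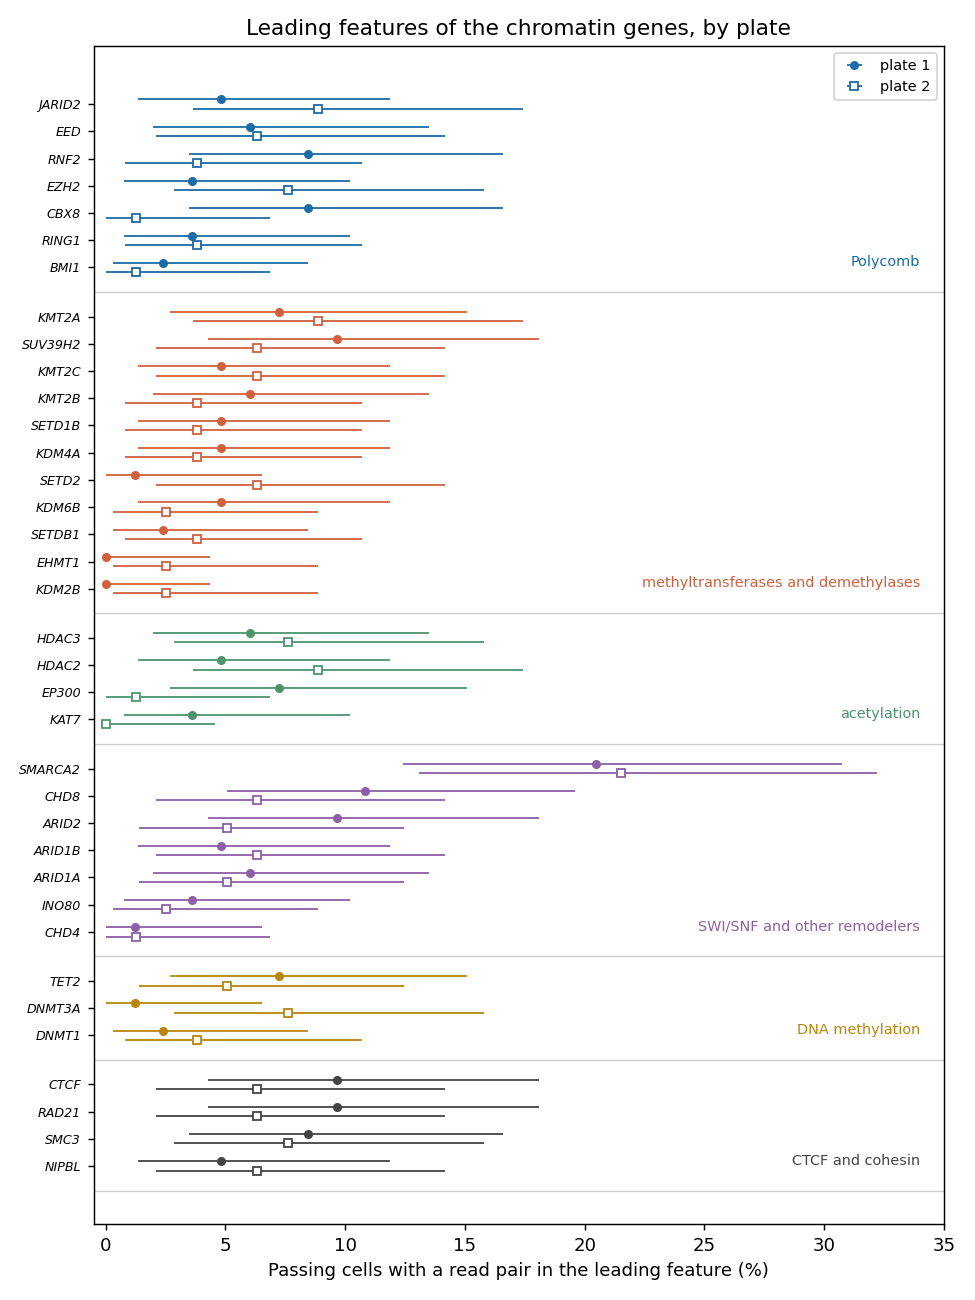
Points give the share of passing cells of plate 1 (filled circles) and plate 2 (open squares) with a read pair in the leading feature of each of the 36 genes with a feature, in percent, and bars give exact 95% intervals for counting error only. SMARCA2 has the highest shares, near 21%, and on each plate its interval overlaps those of other genes. The intervals of the plates overlap for all 36 genes.

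Read by group, the median over all members of a group, genes without a feature included, was 13 cells for CTCF and cohesin, 7 for Polycomb, 5 for the remodelers, 2 for methyltransferases and demethylases, 1.5 for acetylation and 0 for DNA methylation. In the 91 cells outside the wells that shared peaks these medians were 7, 2.5, 4, 0, 1.5 and 0 cells in the same order of groups, so that Polycomb and the remodelers changed places, as did methyltransferases with demethylases and acetylation. Outside those wells the peak filter was also applied anew and the leading features were chosen anew. The medians were then 7.87% of cells for CTCF and cohesin and 4.49% for the remodelers. They were 2.81% for Polycomb, 1.69% for acetylation and 0% for both other groups. The order of the groups below CTCF and cohesin thus depended on these wells. Most of this spread came from genes without a feature. Among the genes with one, the group medians lay between 7 and 13 cells. The further chromatin genes, listed with earlier results of these data known, had a feature in 97 cases (75.8%) and had none in 31. They reached 10 cells in 42 cases (32.8%), with a median of 6 cells, beside 3 over all protein-coding genes. By group, their medians were 7.5 cells for methyltransferases and demethylases, 6 for the remodelers and 5.5 for acetylation. They were 5.5 for CTCF and cohesin, 5 for DNA methylation and 4 for Polycomb. The order of all the groups thus also depended on which genes were listed.

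The canonical promoters of the genes with and without a feature were alike in base composition, with median GC contents of 67.9% and 68.7% around the canonical start. Over all protein-coding genes these medians were 63.2% and 57.8%.

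For these genes the plates are set side by side, at counts too low to show that they were alike. At a limit of 1.5-fold, 8 of the 14 genes seen in at least 10 cells differed. Genes seen in fewer cells, CBX8, EP300, KAT7 and DNMT3A among them, were not counted. Member features took 389 of 234742 read pairs in plate 1 (0.166%, exact interval 0.150 to 0.183) and 323 of 232308 in plate 2 (0.139%, 0.124 to 0.155), and made up 0.0973% of the kept features. Among the 14 genes seen in at least 10 cells, RNF2 alone had shares that differed by 2-fold or more, with 8.43% of plate 1 and 3.80% of plate 2 (ratio 2.22), and its intervals (3.46 to 16.6% and 0.790 to 10.7%) overlapped. Of the 9263 features in at least 10 passing cells, 9.45% were 2-fold or more higher on plate 1 and 12.9% on plate 2. A difference like that of RNF2 was thus common among features of this depth. RNF2 was seen in 9 cells with the peaks shared by paired wells removed from the higher-numbered well and in 7 without these wells, under the limit of 10 cells in both cases. Outside these wells it was seen in 4 of 48 passing cells of plate 1 (8.33%) and 3 of 43 of plate 2 (6.98%).

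Where the leading features lay differed from gene to gene. The median distance of their centers from the nearest own start was 185.5 bp. For 20 of 36 genes (55.6%) the leading feature contained the start of the Ensembl canonical transcript, beside 70.2% of the protein-coding genes with a feature, and for 26 it contained some start of the gene. Counting every kept feature, 24 of the 59 genes (40.7%) had 1 over the canonical start, beside 43.7% of protein-coding genes. For 8 genes the center lay over 1500 bp from the canonical start. These were KMT2C (257693 bp downstream), ARID1B (244168 bp), EHMT1 (213288 bp), KDM2B (141184 bp), KAT7 (26514 bp), KDM6B (9651 bp), BMI1 (4751 bp) and, upstream, ARID1A (-3533 bp). For KMT2C, ARID1B, KDM2B and ARID1A the feature contained no annotated start and was assigned to the gene through its distance alone.

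**Figure D3:**
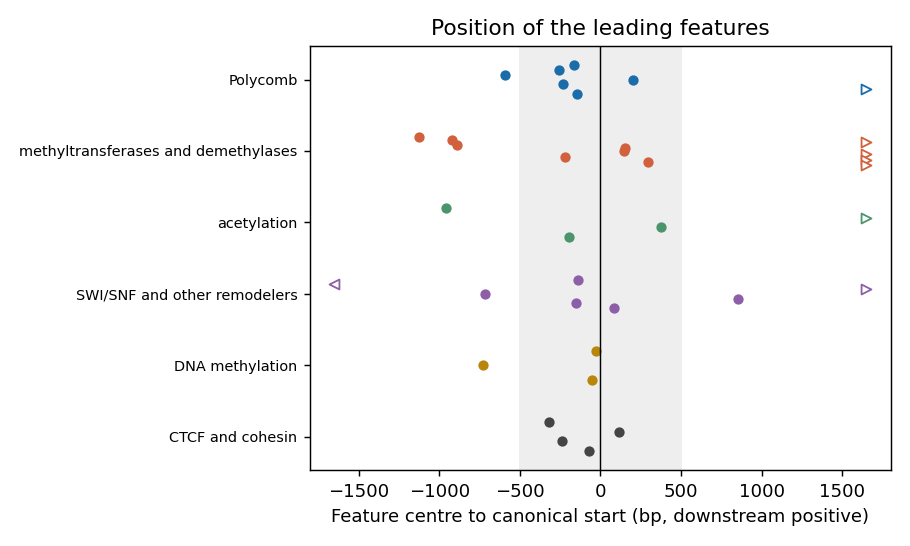
Each point is the leading feature of 1 gene, placed by the distance in bp of its center from the start of the canonical transcript, with the groups on the y axis. The shaded band marks features that contain that start (20 of 36), and open arrowheads stand for the 8 genes whose feature lies beyond 1500 bp.

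Promoters shared with another protein-coding gene were few. An opposite-strand protein-coding gene started within 1000 bp of the leading feature for 2 of 36 genes (5.56%), SETD1B with RHOF and HDAC3 with RELL2, beside 21.4% of the protein-coding genes with a feature. Read pairs in such a feature cannot be assigned to either gene. A start of a long noncoding RNA lay near the leading features of 13 genes. The same count was not made over all protein-coding genes, so these 13 have no background here. Among them were JARID2, SUV39H2, CTCF and NIPBL, which each have a divergent transcript named after them.

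In the 300 bases around the center, the leading features had a median GC content of 66.8% and a median of 24.5 CpGs, beside 65.3% and 25 for all protein-coding genes with a feature. GC exceeded 50% in 33 of 36 (91.7%), beside 89.4% of protein-coding genes. The lowest value was that of KMT2C (34.7%, 2 CpGs). KAT7 had the fewest CpGs (1) and SETD2 the most (44, at a GC content of 76.7%). KMT2C and KAT7 were both among the genes whose leading feature lay far from the canonical start. Motifs were searched on both strands, and none contains the letters of another. The GC box bound by SP1 (GGGCGG) was found in 25 of 36 leading features (69.4%), beside 65.9% of those of all protein-coding genes, and the CCAAT box bound by NF-Y (CCAAT) in 9 of 36, beside 35.6%. The ETS motif (CCGGAAG) was found in 3 (8.33%), in SMARCA2, CHD4 and NIPBL, beside 14.8%, and the E-box (CACGTG) in 3 (8.33%), beside 8.31%. The E2F motif (TTTGGCGC or TTTCCCGC) was found in 4 (11.1%), in KMT2A, SUV39H2, SMC3 and NIPBL, beside 3.19%. The CRE (TGACGTCA) was found in CBX8 and SUV39H2 (5.56%), beside 2.33%, NRF1 (GCATGCGC) in DNMT1 (2.78%), beside 4.06%, and YY1 (AAGATGGCG) in INO80 (2.78%), beside 2.21%. The TATA box (TATAAA) and the ZBTB33 motif (TCTCGCGAG) were found in none of the 36, beside 4.83% and 1.03%. A match is a match of letters, and counts of 4 or fewer give no order among the motifs.

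In a single cell few of the genes were seen. The median was 1 of 59 genes per passing cell, with a range of 0 to 10, and 50 cells (30.9%) had none, 25 on each plate. The cell with 10 genes had 8512 read pairs in peaks. Of the 322 cases of a gene seen in a cell, 265 (82.3%) rested on a single read pair. The 81 deeper cells held 259 of the 322 cases (80.4%) and 80.9% of the read pairs, with a median of 3 genes per cell, beside 0 in the 81 shallower cells. Depth and the number of genes seen rose together over cells (Spearman's rho 0.738 over passing cells of a common pool, a description). Which of the genes a given cell used cannot be read at this depth.

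**Figure D4:**
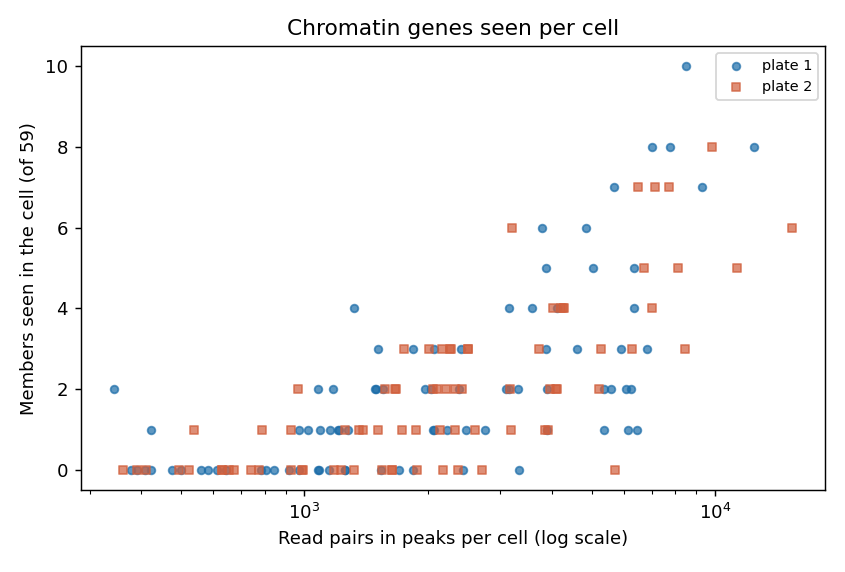
Each point is 1 passing cell (83 of plate 1 and 79 of plate 2), with its read pairs in peaks on the x axis (log scale) and the number of the 59 genes seen in it on the y axis, and shapes mark the plates. Cells of few read pairs mostly show 0 or 1 gene, and the highest cell shows 10.

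Some of the least often seen genes were found only in the wells that shared peaks. Those wells held 48.1% of the 322 cases, from 71 of the passing cells (43.8%), and in 23 cases both wells of a pair had the same gene. Outside these wells, in 91 passing cells, 31 of the 36 genes were seen. BMI1, EHMT1, KDM2B, CHD4 and DNMT1, each seen in 2 to 5 cells, were seen in none of the 91, where the exact interval reached 3.97%. They were 5 of the 8 chromatin genes seen in 5 or fewer cells (62.5%), beside 20.6% of the protein-coding genes with a leading feature in 5 or fewer. These sets were not matched for the number of cells. EHMT1, KDM2B and CHD4 were seen in 2 cells each, so the percentages are not compared further. Over all genes with a feature, 13.9% of the chromatin genes and 7.24% of the protein-coding genes were absent there. KAT7 was seen outside these wells only. With the peak filter applied and the leading features chosen anew outside these wells, 89 cells passed. The median over the 59 genes was then 2.25% of cells, beside 0% over all protein-coding genes. SMARCA2 and CTCF alone, 2 of the 59 genes, reached 10 cells, beside 6.53% of protein-coding genes. The median thus lay above that of protein-coding genes and the share that reached 10 cells below theirs. A share of 2.25% stands for 2 cells here, and the second value rests on 2 genes. Neither is read as a difference from the background.

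**Figure D5:**
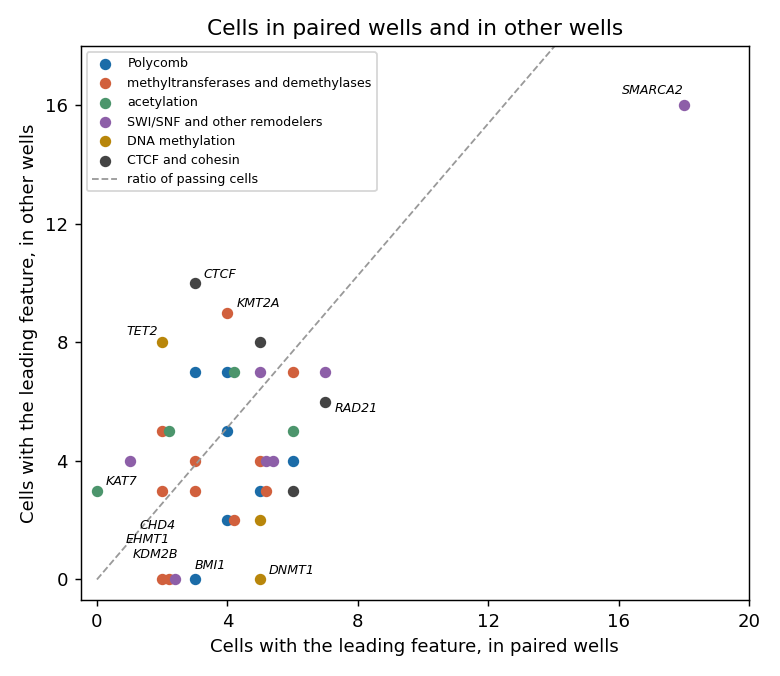
For each of the 36 genes with a feature, the x axis gives the passing cells with the leading feature in wells 37 to 48 and 73 to 96 and the y axis those in the other wells, and the dashed line is the ratio of passing cells (71 to 91). The 5 genes BMI1, EHMT1, KDM2B, CHD4 and DNMT1 lie at 0 on the y axis, and SMARCA2 lies apart with 18 and 16 cells.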

How the data were processed

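The authors deposited raw, unnormalized counts, each the number of read pairs of 1 cell in 1 feature. As the study's methods describe, reads were trimmed and freed of CASB barcode reads, mapped to hg38 by bowtie2, and filtered for mitochondrial origin, low mapping quality and, within each cell, duplicates. Peaks came from MACS2 run over the 192 cells as 1 pool and were set to 1001 bp around each summit, and featureCounts counted the pairs of each cell in each feature. Its setting for overlapping features is not given in the sources used here. Duplicates across wells were thus not removed. Counts of 192 columns were matched to cells by the sample titles, whose numbers were read as plate and well, and 0 columns were left over.

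Features, starts and genes were placed on hg38 with GENCODE 44. The 24 chromosomes of the features are those of the reference, and no feature ends beyond its chromosome. Counts were binarized. Peaks of a single cell were dropped, and a cell passed with over 300 of the remaining peaks. Ties for the leading feature were taken in genome order. Intervals are exact (Clopper-Pearson, 95%) and cover counting error only. Read pairs without molecular identifiers are not independent molecules. No difference was tested, since each plate is 1 sample. All 59 genes were named, and sequences were taken for the genes with the most and the fewest cells in each group, leaving out chromosome 8. The members, the lists of further genes and the alternatives were chosen with earlier results of these data known. The ribosomal protein genes were added after values had been seen. The scripts were tested on simulated data. The software was matplotlib 3.10.9, pandas 2.3.3, SciPy 1.17.1, NumPy 2.4.6 and Python 3.11.15.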

Additional observations from a re-analysis of the deposited data

How the results depend on the processing

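Of the values recomputed under 15 alternatives, 85 stayed within 1.5 times the count or within the interval of the share, and 41 did not. No paired analysis was possible because no result came from a test and the cell numbers do not pair cells across plates. Features with a start inside, or near the canonical start only, lowered the share of read pairs to 0.1015% and 0.1058% (from 0.152%) and the medians of methyltransferases with demethylases and of acetylation to 0% each. The number of genes with a feature stayed between 31 and 36, and the number seen in at least 10 cells between 12 and 14 under the 3 other definitions.

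Without cells 37 to 48 and 73 to 96, 2 genes reached 10 cells (from 14, with 89 passing cells left), the share of read pairs was 0.2043%, the median per cell was 2 genes, no gene (0) differed 2-fold, and the median of methyltransferases with demethylases was 0%. With shared peaks of paired wells left in the lower-numbered well alone, the share of read pairs was 0.1706%, 0 genes differed 2-fold and that median was 0%. The cause of the higher shares of read pairs was not tested. Only genes that reached 10 cells could count as differing 2-fold, and without cells 37 to 48 and 73 to 96 these were 2 genes. With cells of more than 500 or more than 1000 peaks the median per cell was 2 genes each, and 2 and 3 genes differed 2-fold. With every cell used 2 genes did.

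With at least 2 read pairs required, 1 gene reached 10 cells, the median over all genes and the median per cell were 0, 0 genes differed 2-fold, and the group medians were 0.6173% for Polycomb and for CTCF with cohesin and 0% for methyltransferases with demethylases and for remodelers. After thinning to 600 read pairs, which left out 16 passing cells, 0 genes reached 10 cells, the median over all genes and per cell were 0, 0 genes differed 2-fold, and the group medians were 0.6849% for Polycomb and for remodelers, 1.37% for CTCF with cohesin and 0% for methyltransferases with demethylases and for acetylation. Only genes that reached 10 cells could count as differing 2-fold. Under these 2 settings 1 gene and 0 genes did, so the counts of 0 do not show that the plates were alike. With any feature of a gene in place of the leading one, the median per cell was 2 genes, and 3 genes differed 2-fold. At limits of 5 and 20 cells, 31 genes and 1 gene passed, and at 1.5-fold 8 genes differed between the plates. Most cases rested on 1 read pair, so each share is a count at this depth. How far depth set the shares was not tested.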
